A study of Danio rerio with 10 samples.

Results

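Transcripts that were scarce in the 1-cell zebrafish embryo and abundant by the 128-cell embryo were followed through 10 stages of Danio rerio. They were chosen by level: below 1 RPKM in the 1-cell library and at least 20 RPKM in the 128-cell library, where RPKM gives reads per kilobase of a gene, adjusted for library depth. Of 32574 genes, 171 passed both thresholds. CTCF, CDK9 and 3 znf genes were then left out by name, hdgfl2 was kept, and 166 genes remained. They made up 3.77% of the 4401 genes at 20 RPKM or more in the 128-cell library, and the other 4235 serve below for comparison. A symbol was available for 144 of the 166, and 133 had a symbol that no other gene of the table shares.

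RNA was measured by sequencing in sperm, oocytes, embryos with 1, 4, 16, 64, 128, 256 or 1000 cells, and sphere, the blastula stage after 1000 cells. Each stage was 1 library, prepared from total RNA with a kit that captures polyadenylated transcripts. Strain, treatment, age of the parents and the number of animals or embryos pooled are not stated in the labels. With 1 library per stage there was no replicate spread, so differences between stages carry no p-value. A fold is the ratio of the RPKM values and comes with an exact 95% interval on the reads, which covers counting error only and leaves out differences between clutches or library preparations.

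In zebrafish, the first divisions are fast and synchronous, and most of the genome stays silent until the midblastula transition. Before then the embryo runs on RNA and protein that the mother stored in the egg. Stored mRNAs can carry short poly(A) tails and gain longer ones after fertilisation, so a transcript can enter a poly(A)-selected library without being newly made. In these libraries the amount of a transcript and the share of it that was captured cannot be told apart, nor can fewer cells with a transcript and less of it per cell. RPKM is relative to the total of its library, so no value here is an amount per embryo.

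The libraries had been scaled to between 37762530 reads (1-cell) and 113972795 reads (4-cell), and 86.2% to 93.8% of these lay in genes. For a gene 1 kilobase long, 3 reads made 0.0794 RPKM at 1 cell and 0.0263 RPKM at 4 cells. The oocyte library held 21 of 23 matched egg and maternal factors at 1 RPKM or more. It also held 7 of 16 matched ovarian follicle genes at that level, with a summed level of 647 RPKM against 289 RPKM in the 1-cell library, while the defining follicle genes gsdf and amh stood at 0.027 and 0.011 RPKM. Of 22 first zygotic genes, 1 reached 1 RPKM at 1 cell, 3 did at 128 cells, 10 at 1000 cells and 19 in sphere. None of the 166 genes is in any marker list. For some egg genes the 16-cell library stood apart from its neighbours: the egg-polarity gene buc read 33.2 RPKM at 4 cells, 343 at 16 and 134 at 64, and the oocyte growth factor bmp15 read 3.82, 43.9 and 5.26. Other egg markers differed less, with gdf9 at 15.4, 25.2 and 18.6 RPKM and zp2.1 at 15.1, 19.2 and 17.1 RPKM. The summed level of the egg and maternal factors had no such peak, at 14578, 7672 and 7933 RPKM. Their median did, at 32.7, 66.0 and 39.6 RPKM, and so did zp3b, at 32.7, 89.7 and 54.7 RPKM. Counts over the 166 genes, the role groups and the gene lists that rest on the 16-cell library are therefore also given with the 64-cell library in its place, an alternative added after seeing the data.

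The values that chose the genes are a description. In the 1-cell library the 166 ranged from 0 to 0.991 RPKM, with a median of 0.649 RPKM and 55 reads, so they were scarce and, with 1 exception, not absent. In the 128-cell library they ranged from 20.03 to 88.2 RPKM, with a median of 26.5 RPKM. FAM114A1, HVCN1 and PCGF6 lay just inside the 1-cell threshold at 0.990, 0.978 and 0.977 RPKM. Just outside it lay taok2a, ROCK1 and MED7 at 1.00, 1.004 and 1.01 RPKM. At the 128-cell threshold NXPE3, PDAP1 and TBC1D23 lay just inside at 20.03, 20.1 and 20.1 RPKM. YJU2B, si:rp71-19m20.1 and si:ch211-89o9.6 lay just outside at 19.99, 19.97 and 19.8 RPKM. For 51 genes the 1-cell counting interval reached 1 RPKM, and for 15 the 128-cell interval reached below 20 RPKM, so membership near either threshold was not settled by these reads. Membership also depended on the scaling. Median ratio scaling, which sets libraries level by the typical gene, multiplied 1-cell values by 2.68 and left 18 genes within the rule.

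**Figure D1:**
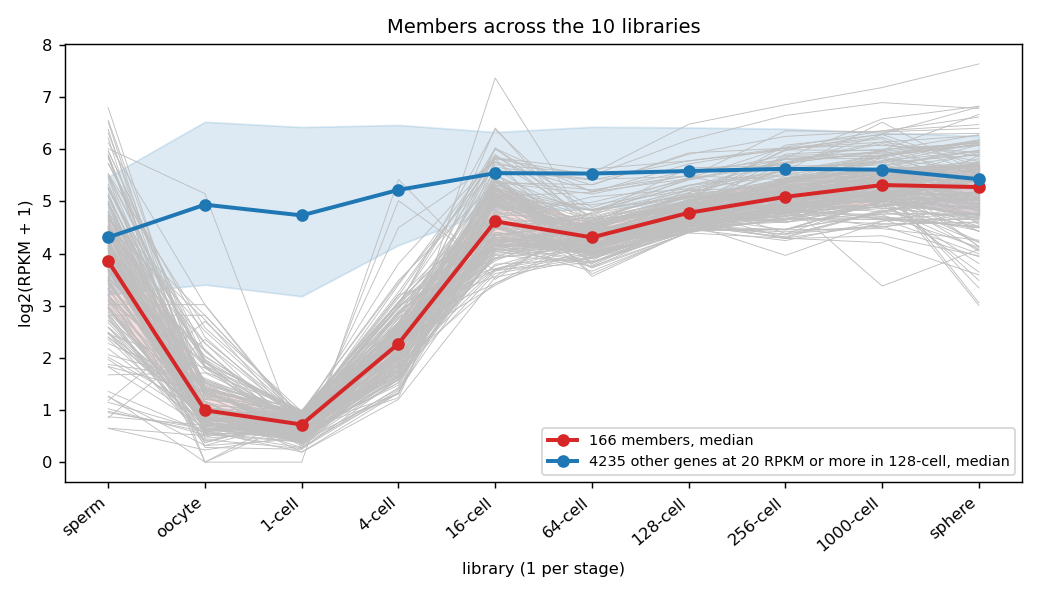
Level of each of the 166 genes (grey lines) in the 10 libraries, as log2(RPKM + 1), with their median in red and the median of the 4235 other genes at 20 RPKM or more in the 128-cell library in blue (shaded: between the quartiles of each set). The red median was 0.992 RPKM in the oocyte, 0.649 at 1 cell, 3.83 at 4 cells and 23.6 at 16 cells, while the blue median was 29.6 RPKM in the oocyte and 45.6 at 16 cells.

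The genes were scarce in the oocyte as well. Their median oocyte level was 0.992 RPKM (151 reads), with quartiles at 0.655 and 1.75 RPKM, against a median of 29.6 RPKM for the other genes. In all, 81 of 166 (48.8%) reached 1 RPKM in the oocyte, against 4156 of 4235 (98.1%) of the others. Only 7 reached 5 RPKM, and 3 without a symbol were listed at 0. Under median ratio scaling 125 members reached 1 RPKM and the median was 1.52 RPKM. The oocyte library played no part in the choice, but it is the stage next to 1 cell, so its values are not independent of those that chose the genes.

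The highest oocyte level belonged to odf3l2a, a relative of the outer dense fibre genes of the sperm tail, at 34.4 RPKM against 0.182 RPKM at 1 cell and 31.3 RPKM at 4 cells. The oocyte library held 2188 of its reads and the 1-cell library 8, a 189-fold difference (95.7 to 438). Its course did not follow that of the median member: 63.5 RPKM in sperm, then 11.7, 21.1, 31.0, 19.9, 21.7 and 26.6 RPKM from 16 cells to sphere.

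After it came gpc1b, which encodes a glypican of the cell surface, at 7.11 RPKM in the oocyte and 0.677 at 1 cell, 10.5-fold apart (6.95 to 16.6). FAM53B stood at 7.09 and 0.608 RPKM, 11.7-fold apart (8.45 to 16.6). GPX8, a peroxidase of the endoplasmic reticulum, stood at 6.04 and 0.821 RPKM, and ORC3, a subunit of the origin recognition complex that marks where replication starts, at 6.02 and 0.844 RPKM. For these 4 genes the 1-cell library held 24 to 75 reads each, so the deficit against the oocyte was well outside counting error. HIF1A, the oxygen-regulated transcription factor, was singled out after its values were seen, at 5.63 RPKM in the oocyte and 0.576 at 1 cell, 9.77-fold apart (7.94 to 12.1).

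At the other end, among genes with a symbol of their own, stood trim35-29, a TRIM-family gene, at 0.176 RPKM in the oocyte (18 reads) and 0.424 RPKM at 1 cell. Among the other low genes zgc:173548 stood at 0.215 and 0.187 RPKM. CTNNAL1, the catenin-like protein alpha-catulin, stood at 0.248 and 0.751 RPKM, and si:ch73-109d9.1 at 0.293 and 0.847 RPKM. For zgc:173548, with 10 and 6 reads, the oocyte and the 1-cell levels could not be told apart at this depth, at a ratio of 1.15 (0.379 to 3.85).

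Across the 166, the oocyte level was above the 1-cell level in 141 and below it in 24, and the counting interval lay above equality in 105, below it in 15 and spanned it in 46. The ceiling set at 1 cell favours that direction, and the order of the medians turned with the scaling: under median ratio scaling it was 1.52 RPKM in the oocyte and 1.74 RPKM at 1 cell. By a 4-fold rule, a difference of 2 or more in log2(RPKM + 1) counted where the higher of the pair was 1 RPKM or more, 4 of 81 measured members were lower at 1 cell than in the oocyte (odf3l2a, gpc1b, FAM53B and HIF1A) and 0 were higher. Over all genes measured, 3.4% were lower and 1.06% higher. Members were below 1 RPKM at 1 cell, so only those at 1 RPKM or more in the oocyte were measured. None of them could be higher at 1 cell, and nothing is read from these counts.

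**Figure D2:**
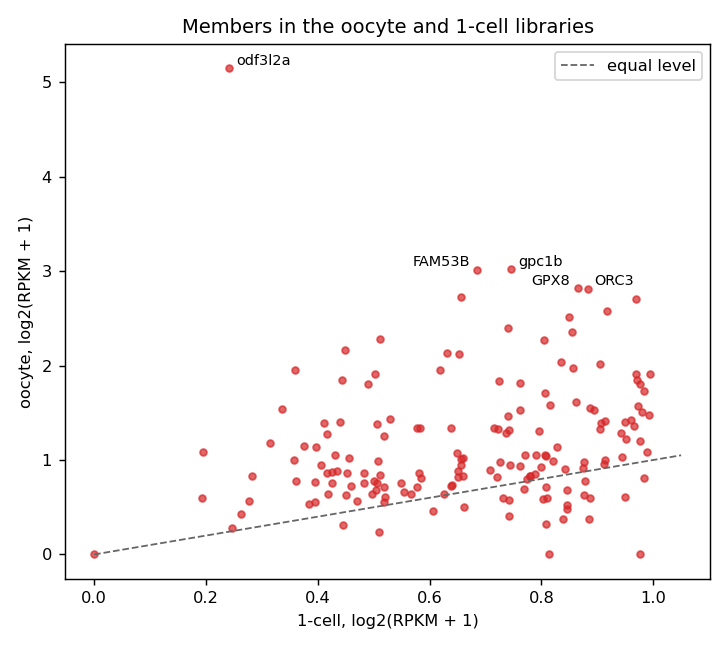
Oocyte level against 1-cell level of the 166 genes, both as log2(RPKM + 1), each point a gene and the dashed line equality. Of the points, 141 lie above the line and 24 below it, and odf3l2a stands apart at 34.4 RPKM in the oocyte and 0.182 RPKM at 1 cell.

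Every one of the 166 had reached 1 RPKM by the 4-cell library, where the median was 3.83 RPKM and the range 1.31 to 41.9 RPKM. The 4-cell level was above the 1-cell level in all 166, by a median ratio of 6.84, and 34 passed the 4-fold rule (20.5%; 2.15% over all genes measured). The rule chose on the 1-cell values, so nothing is read from that count. Against the oocyte 21 (12.7%) were higher at 4 cells by the 4-fold rule and 0 lower, and the median ratio was 3.70. Of all genes measured 3.33% were higher and 3.13% lower. The 4-cell level was above the oocyte level in 152 members (91.6%), beside 56.1% of all genes measured. The interval of that ratio lay above equality in 148 members, below it in 12 and across it in 6. The rule did not use the oocyte, but it is the stage next to 1 cell. The choice therefore favours these counts too, and they are a description. Levels lower at 4 cells than in the oocyte included gpc1b (2.26 against 7.11 RPKM), the glycyl-tRNA synthetase gene GARS1 (1.36 against 2.87 RPKM) and nop16 (1.96 against 3.37 RPKM).

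The largest single step of most of the genes on the log2(RPKM + 1) scale lay between 4 and 16 cells. It was the largest of the 7 steps from 1 cell to sphere for 126 genes (75.9%), and the step from 1 to 4 cells was the largest for the other 40. The pseudocount of 1 shrinks the step from below 1 RPKM: the median ratio of the RPKM values was 6.69 from 4 to 16 cells, no more than the 6.84 from 1 to 4 cells, and with a pseudocount of 0.1 the count was 92. Among the 4235 other genes, 29.4% had their largest step between 4 and 16 cells. A gene below 1 RPKM at 1 cell and at 20 RPKM or more at 128 cells must increase somewhere between, so the increase is fixed by the choice and only its place is described. Of the 166, 153 first reached at least 0.5 times their 128-cell level in the 16-cell library, 10 at 64 cells, 2 at 4 cells and 1 at 128 cells, the last being trim35-29. With the 16-cell library left out, the step from 4 to 64 cells was the largest for 126 genes, and 161 first reached that level at 64 cells, 3 at 128 and 2 at 4 cells. That level rests on the 128-cell value that chose the genes, and no share of the other genes is set beside these counts. How far the timing is particular to the members is therefore not judged.

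The median of the members went from 3.83 RPKM at 4 cells to 23.6 RPKM at 16 cells, where they ranged from 9.48 to 164 RPKM. By the 4-fold rule 113 of 166 (68.1%) were higher at 16 cells and 0 lower, beside 10.7% higher and 0.587% lower over all 12606 genes measured and 306 of 4235 (7.23%) higher among the other abundant genes. The median difference was 2.43 on the log2 scale for the members, 0.74 for all genes measured and 0.22 for the other abundant genes. The rule chose a low level before these stages and a high level after them, which favours a higher level at 16 cells. The contrast with genes not so chosen is therefore a description. The ratio was above 1 beyond counting error in 164. The 2 that were lower were odf3l2a and an unnamed gene of 270 bases, ENSDARG00000086887. That gene had 0 reads in the oocyte and the 1-cell libraries and 1289 reads (41.9 RPKM) at 4 cells, and then read 10.3 RPKM at 16 cells. With its 0 reads at 1 cell replaced by a floor of 3, the 4-cell level was 142-fold above the 1-cell level.

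This difference was partly shared by all genes. Median ratio scaling lowered the median 16-cell to 4-cell difference of all genes by 0.76, from 0.74 to -0.02, and the split of all genes from 1343 higher and 74 lower to 329 higher and 767 lower. The median of the members changed from 2.43 to 1.56. Relative to the median of all genes it was 1.69 as deposited and 1.58 under that scaling. Under it 45 members were higher by the 4-fold rule, 2 were lower and 160 were above 0. When 64 cells were compared with 4 cells instead, 94 members (56.6%) were higher, beside 1.95% of all genes measured. Members were chosen for a low level before these stages and a high level after them. The choice therefore favours the counts at 16 and at 64 cells, and all genes measured were not chosen in that way. Both counts are a description, and the 64-cell count is not separate support for the 16-cell count.

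Set against the oocyte, 158 of 166 (95.2%) were higher at 16 cells by the 4-fold rule and 0 lower, beside 20.5% of all genes measured higher and 3.11% lower, and the median ratio was 24.9 against 1.404 among the other abundant genes. With the 64-cell library instead, 153 were higher, beside 15.5% of all genes measured. At 1000 cells 163 were higher than in the oocyte and 0 lower, beside 24.2% and 4.74% of all genes measured. Members were chosen for a low level at the stage next to the oocyte and a high level at a later stage. The genes set beside them were not chosen for a low early level. The choice therefore favours these counts and the median ratio of the members, and they are a description. The counts also share the oocyte library, so they are not separate evidence.

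**Figure D3:**
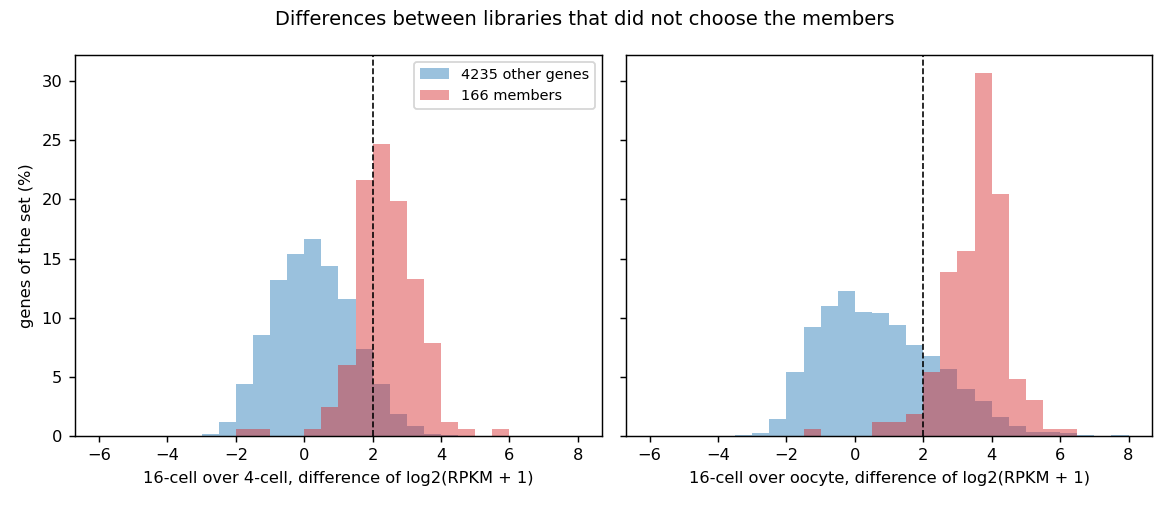
Share of genes (vertical axis, percent of each set) by difference in log2(RPKM + 1), 16-cell over 4-cell on the left and 16-cell over oocyte on the right, for the 166 genes in red and the 4235 other abundant genes in blue, with the 4-fold rule as a dashed line. On the left 113 of the 166 and 306 of the 4235 lie at or right of the line, and on the right 158 of the 166 do.

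The 16-cell level was above the 64-cell level in 112 members (67.5%), against 61.5% of all genes measured and 43.2% of the other abundant genes, by a median ratio of 1.23. The share of the members was thus near that of all genes. The interval lay above equality in 109 and below it in 46. By the 4-fold rule 3 were lower at 64 cells than at 16, beside 0.906% of all genes measured: an unnamed gene, ENSDARG00000007204 (164 to 20.4 RPKM), AURKAIP1, whose product belongs to the mitochondrial ribosome (83.8 to 19.2 RPKM), and ccdc86, a nucleolar protein gene (55.6 to 12.995 RPKM). These 3 were chosen after their values were seen, and they were higher again later, at 111, 77.9 and 67.1 RPKM in sphere.

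From 64 cells on the median of the members was higher at each stage up to 1000 cells. The median was 18.8 RPKM at 64 cells, 26.5 at 128, 33.0 at 256 and 38.8 at 1000 cells, and 118 genes (71.1%) were higher at every one of these 3 steps, against 19.9% of the other abundant genes. The 1000-cell to 128-cell ratio had a median of 1.45 against 0.956. The 128-cell floor of the rule favours an increase up to that stage. All 166 were higher at 128 than at 64 cells, against 57.4% of the other abundant genes, so the count of 118 is a description. The next step starts from the 128-cell value that the rule used. There 132 (79.5%) were higher at 256 than at 128 cells, beside 56.6% of all genes measured. Past it, 147 (88.6%) were higher at 1000 than at 256 cells, beside 63.9%. Together the 166 genes took 0.0694% of the reads in the oocyte, 0.0295% at 1 cell, 0.209% at 4 cells, 1.36% at 16 cells, 0.995% at 64 cells and 2.097% at 1000 cells.

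A straight line of log2(RPKM + 1) against log2 cell number was fitted with limma over all genes and the 5 libraries that the rule did not use (4, 16, 64, 256 and 1000 cells), which leaves 3 residual degrees of freedom. No gene of 12589 passed an adjusted p of 0.05, members included. Their median slope was 0.33 per doubling of cell number against 0.08 for all genes, 150 members had an unadjusted limma p under 0.05 for an increase and 0 for a decrease (over all genes 3149 and 755), and the smallest adjusted p was 0.0676. The 16-cell library decided this result. Without it, with 2 residual degrees of freedom, 164 members were called rising, beside 6699 of 12351 genes (54.2%) and 39.1% of the other abundant genes. The choice of members tilts their slopes upward, so this count is a description. The steepest slope among members without the 16-cell library was 0.67 (SE 0.043), for pprc1. ENSDARG00000086887 was called falling at -0.21 (SE 0.056), and odf3l2a was not called.

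By function the groups were of similar size at the top: 18 genes of ribosome assembly, 17 of signalling, adhesion and cytoskeleton, and 15 of Golgi and vesicle traffic. Another 52 members were not grouped. These sizes depend on how widely each role was drawn, and the share of each role among all genes was not worked out. Roles known for the named gene or its counterparts in yeast or mammals were assigned to 114 members in 10 groups after the values were seen, so the groups describe and do not test. The ribosome biogenesis and nucleolus group held 18 genes. By the 4-fold rule 16 of these were higher at 16 than at 4 cells, with a median log2 difference of 3.12 against 2.43 for all members, and 16 were higher at 64 than at 4 cells, with a median of 2.51 against 2.07. Their median was 1.51 RPKM in the oocyte (14 of 18 at 1 RPKM or more), 2.15 at 4 cells, 29.5 at 16 cells, 17.4 at 64 cells and 48.3 at 1000 cells.

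PINX1, a nucleolar protein that also binds telomerase, read 10.5 RPKM in sperm, 1.97 in the oocyte, 0.962 at 1 cell, 4.73 at 4, 63.2 at 16, 28.5 at 64, 43.0 at 128, 80.8 at 256 and 79.5 at 1000 cells, and 83.6 in sphere. LTV1, which takes part in maturation and export of the small ribosomal subunit, read 13.3, 1.01, 0.575, 1.47, 37.1, 18.0, 28.0, 43.0, 47.3 and 49.1 RPKM over the same libraries. WDR43, a component of the small-subunit processome, read 37.3, 1.77, 0.671, 2.15, 45.9, 12.7, 23.2, 39.3, 62.2 and 101 RPKM. In each of the 3 the 4-cell level was within a few RPKM of the oocyte level and the 16-cell level far above it. The 16-cell to 4-cell ratio was 13.4 for PINX1 (12.5 to 14.3), 25.2 for LTV1 (22.6 to 28.1) and 21.3 for WDR43 (19.7 to 23.1). The 64-cell to 4-cell ratio was 6.04 (5.62 to 6.48), 12.2 (10.9 to 13.7) and 5.88 (5.40 to 6.41) for the same genes. ttf1.2, whose mammalian counterpart ends transcription by RNA polymerase I, read 4.48 RPKM at 4 cells, 26.9 at 16, 30.6 at 64 and 41.8 at 128 cells.

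RRP12, which acts in nuclear export of ribosomal precursors in yeast, went from 1.99 to 36.8 RPKM over that step, and DDX27, an RNA helicase, from 1.87 to 32.1 RPKM. NOC2L, the counterpart of a yeast factor of large-subunit assembly, and utp3, a processome gene, had their largest log2 step before 4 cells. They read 5.22 and 4.89 RPKM at 4 cells and 17.4 and 12.6 RPKM at 16 cells. UTP11 and nop16 read 18.4 and 15.1 RPKM at 16 cells and went on to 55.6 and 53.8 RPKM at 1000 cells. Within the group the 16-cell to 4-cell ratio ran from 2.57 for utp3 to 37.1 for ccdc86.

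**Figure D4:**
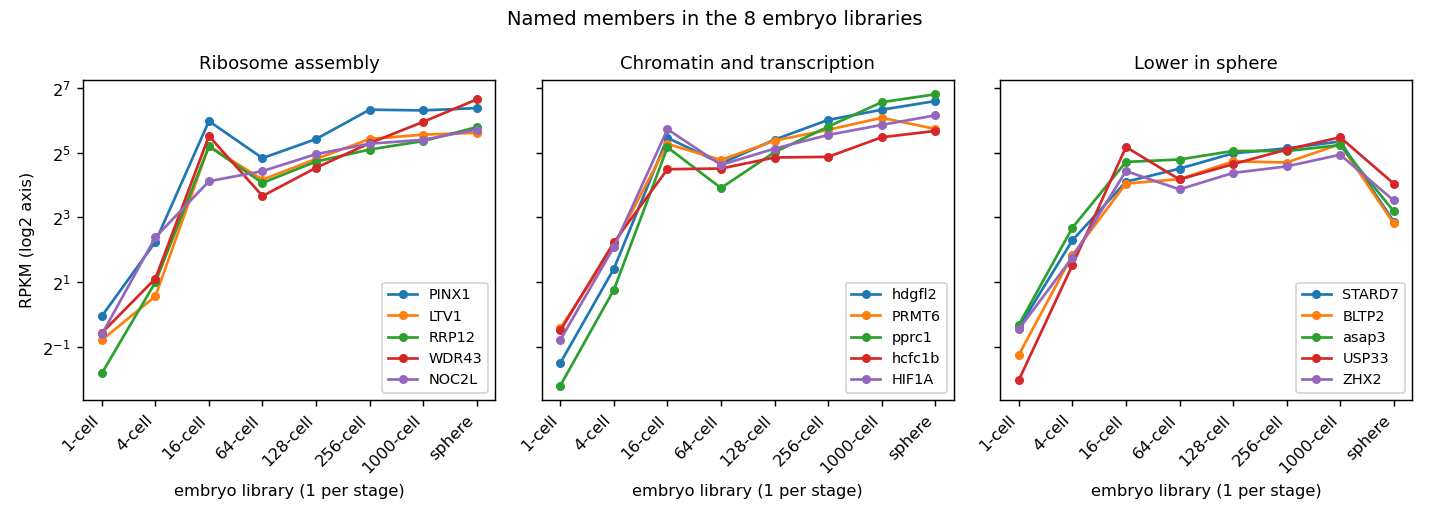
RPKM of 15 named genes in the 8 embryo libraries, on a log2 axis, in 3 panels: ribosome assembly, chromatin and transcription, and genes lower in sphere. In the first 2 panels most genes gain most between 4 and 16 cells, as LTV1 does from 1.47 to 37.1 RPKM, and in the last the 5 genes are lower in sphere than at 1000 cells, as STARD7 is at 7.31 against 40.8 RPKM.

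A longer list of 64 measured ribosome biogenesis genes, compiled with earlier results of these data known, held 8 members: DDX27, LTV1, NOC2L, RRP12, UTP11, WDR43, nop16 and utp3. Of the 64, 27 (42.2%) were higher at 16 than at 4 cells by the 4-fold rule, beside 10.7% of all genes measured, 0 were lower, and the median difference was 1.70 against 0.74 for all genes measured. The members DDX27, LTV1, RRP12, UTP11, WDR43 and nop16 are among the 27. List counts here and below include any members the list holds. The choice of members favours a higher level at 16 and 64 than at 4 cells, so these counts are not separate support. The list of tRNA enzymes and translation factors held 4 members, with 16 of 62 measured genes (25.8%) higher and a median of 1.04. At 64 over 4 cells the counts were 12 of 64 (18.8%) and 3 of 59 (5.08%), beside 1.95% of all genes. Among those 4, GARS1 went from 1.36 to 41.2 RPKM, 30.4-fold (27.5 to 33.7), and was 7.97-fold above its 4-cell level at 64 cells (7.16 to 8.89). The initiation factor gene eif5b went from 4.15 to 42.2 RPKM, ABCF1, an initiation-associated ATPase, from 3.56 to 30.6 RPKM, and the cysteinyl-tRNA synthetase gene CARS1 from 4.58 to 16.2 RPKM.

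Chromatin genes were 13, of which 11 (84.6%) were higher at 16 than at 4 cells by the 4-fold rule and 9 (69.2%) at 64 than at 4 cells. The shares of all members were 68.1% and 56.6%. The chromatin genes were scarcer in the oocyte than the ribosome group, with 3 of 13 at 1 RPKM or more and a median of 0.846 RPKM. hdgfl2, whose PWWP domain reads histone methylation, stood at 14.5 RPKM in sperm, 0.846 in the oocyte, 0.351 at 1 cell, 2.66 at 4, 44.2 at 16, 25.4 at 64, 42.5 at 128, 64.8 at 256 and 80.7 at 1000 cells, and 97.1 in sphere. Apart from the dip at 64 cells it was higher in each embryo library than in the one before, and the 16-cell level was 16.6 times the 4-cell level (15.5 to 17.8), the 64-cell level 9.57 times (8.92 to 10.3). PRMT6, a histone arginine methyltransferase, read 0.905 RPKM in the oocyte, 4.34 at 4 cells and 38.8 at 16 cells. hcfc1b, a subunit shared by several histone-modifying complexes, went from 4.69 to 22.5 RPKM, and srcap, the ATPase that exchanges histone H2A.Z, from 2.59 to 9.80 RPKM. The list of chromatin modifiers and remodellers held 2 members, hcfc1b and hdgfl2, and 4 of its 47 measured genes (8.51%) were higher at 16 cells, a share not above the 10.7% of all genes. At 64 cells 2 of 47 (4.26%) were higher, beside 1.95% of all genes, with the member hdgfl2 among them.

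Among 10 genes for transcription factors and coregulators, 7 (70%) were higher at 16 than at 4 cells by the 4-fold rule. At 64 over 4 cells 5 (50%) were, and 2 reached 1 RPKM in the oocyte. The shares were near those of all members, 68.1% and 56.6%. pprc1, a coactivator related to PGC-1 that acts on nuclear genes for mitochondria, read 6.99 RPKM in sperm, 0.783 in the oocyte, 0.216 at 1 cell, 1.69 at 4, 36.0 at 16, 15.04 at 64, 32.4 at 128, 56.0 at 256 and 94.8 at 1000 cells, and 112 in sphere. It was the only member of the list of transcription and Mediator genes, where 8 of 35 measured genes (22.9%) were higher at 16 cells, and of the list of mitochondrial gene expression and import, where 11 of 44 were. At 64 cells these were 1 of 35 (2.86%), which was pprc1 itself, and 3 of 41 (7.32%), with pprc1 among them. All genes measured gave 10.7% at 16 cells and 1.95% at 64 cells. HIF1A went from 4.24 to 53.0 RPKM over the step, having been at 5.63 RPKM in the oocyte. E2F8, a repressor of the cell cycle, went from 5.20 to 37.2 RPKM, and lin37, a subunit of the MuvB complex that controls cell-cycle genes, from 1.79 to 33.3 RPKM.

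In mRNA processing, 5 of 8 genes (62.5%) were higher at 16 than at 4 cells by the 4-fold rule and 4 (50%) at 64 than at 4 cells. With 8 genes, these shares lay near the 68.1% and 56.6% of all members. CWC25, a splicing factor, was an early case, at 2.75 RPKM in the oocyte, 0.417 at 1 cell, 21.5 at 4 cells and 53.2 at 16 cells. setx, the helicase senataxin that unwinds RNA-DNA hybrids, came later, at 3.02 RPKM at 4 cells, 22.4 at 16, 25.9 at 64, 49.0 at 128 and 76.8 at 1000 cells. These 2 were the members of the list of splicing genes and RNA helicases. Of its 44 measured genes 6 (13.6%) were higher at 16 cells, near the 10.7% of all genes. At 64 cells 2 (4.55%) were, beside 1.95%. matr3l1.1, related to the nuclear RNA-binding protein matrin 3, read 4.01 RPKM at 4 cells, 26.02 at 16 and 36.7 at 128 cells. CLP1, an RNA kinase of pre-mRNA and tRNA processing, read 6.996 RPKM at 4 cells and 13.999 at 16. Its log2 difference of 0.91 over that step became -0.003 under median ratio scaling.

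DNA replication and repair held 6 genes, 5 of them (83.3%) higher at 16 than at 4 cells by the 4-fold rule. At 64 over 4 cells 3 (50%) were higher. The shares of all members were 68.1% and 56.6%. ORC3 differed from the other 5 in its start: 12.98 RPKM at 4 cells, against 6.02 in the oocyte and 56.0 at 16 cells, with its highest level of 62.5 RPKM at 256 cells. XPC, the damage sensor of nucleotide excision repair, read 0.765 RPKM in the oocyte, 2.70 at 4 cells and 18.2 at 16 cells, and went on to 51.5 RPKM in sphere. They were the 2 members of the list of DNA repair and replication genes. Of its 83 measured genes 16 (19.3%) were higher at 16 cells, beside 10.7% of all genes. At 64 cells 2 of 82 (2.44%) were, near the 1.95% of all genes.

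Of 12 genes of the ubiquitin system and protein folding, 11 (91.7%) were higher at 16 than at 4 cells by the 4-fold rule. At 64 over 4 cells 6 (50%) were higher. The shares of all members were 68.1% and 56.6%, so the group was above them in the first comparison only. CUL3, the scaffold of a family of ubiquitin ligases, read 92.9 RPKM in sperm, 1.63 in the oocyte, 0.932 at 1 cell, 6.88 at 4 cells, 40.3 at 16 cells and 68.9 RPKM in sphere. FAF1, a ubiquitin-binding adaptor, read 5.29 RPKM at 4 cells and 36.9 at 16, and the deubiquitinase gene USP33 read 2.87 and 36.2 RPKM. trim35-29 was the latest of the 166 by the level-of-128-cells measure, at 2.90 RPKM at 4 cells, 14.03 at 16, 17.1 at 64, 37.2 at 128 and 90.7 at 1000 cells, then 45.2 RPKM in sphere. FAF1, USP33 and trim35-29 were in the list of the ubiquitin and SUMO pathway. Of its 70 measured genes 11 (15.7%) were higher at 16 cells and 4 (5.71%) at 64 cells, beside 10.7% and 1.95% of all genes.

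In the remaining groups the median log2 difference between 16 and 4 cells was below that of all members, at 2.27, 1.81 and 1.86. That order rests on the 16-cell library, since at 64 over 4 cells the medians were 1.86, 1.97 and 2.05 against 2.07. Of 15 Golgi and vesicle genes, 9 (60%) were higher at 16 cells by the 4-fold rule and 4 (26.7%) at 64 cells. The shares of all members were 68.1% and 56.6%. COG2 and COG4, subunits of a Golgi tethering complex, went from 3.79 to 32.8 and from 3.56 to 18.9 RPKM, while GOLGA3, a Golgi matrix gene, went from 5.89 to 11.9 RPKM. TOR1B, a torsin ATPase of the endoplasmic reticulum and nuclear envelope, was already at 10.2 RPKM at 4 cells and went to 39.98 RPKM. VPS9D1, whose product carries a VPS9 domain, went from 5.79 to 37.4 RPKM. COG2, COG4 and GOLGA3 were among the 4 members in the list of vesicle and small GTPase traffic. Of its 53 measured genes 11 (20.8%) were higher at 16 cells, beside 10.7% of all genes. At 64 cells 2 of 52 (3.85%) were, beside 1.95%. In metabolism and mitochondria 4 of 10 genes (40%) were higher at 16 cells by the rule and 5 (50%) at 64 cells. The median oocyte level of this group, 2.40 RPKM, was above that of all members. HADHA, a subunit of the mitochondrial trifunctional protein of fatty acid oxidation, went from 4.82 to 33.9 RPKM.

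In signalling, adhesion and cytoskeleton 7 of 17 genes (41.2%) were higher at 16 cells by the rule and 10 (58.8%) at 64 cells. The shares of all members were 68.1% and 56.6%. The 16-cell to 64-cell ratio of this group had a median of 0.982 against 1.23 for all members. CTNNAL1 read 6.87 RPKM at 4 cells, 24.6 at 16 and 36.8 at 128, and SEMA3E, a secreted guidance cue, read 6.25, 21.1 and 32.9 RPKM at the same stages. Both CTNNAL1 and SEMA3E were highest at 128 cells. The lists of mRNA tail and decay, nuclear pore and transport, mitosis and centrosome, and germ plasm and piRNA held no member. In these, 10 of 39 (25.6%), 3 of 46 (6.52%), 12 of 63 (19.0%) and 4 of 22 (18.2%) measured genes were higher at 16 than at 4 cells, beside 10.7% of all genes. At 64 over 4 cells they were 2 of 39, 1 of 45, 4 of 63 and 0 of 22, beside 1.95%.

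**Figure D5:**
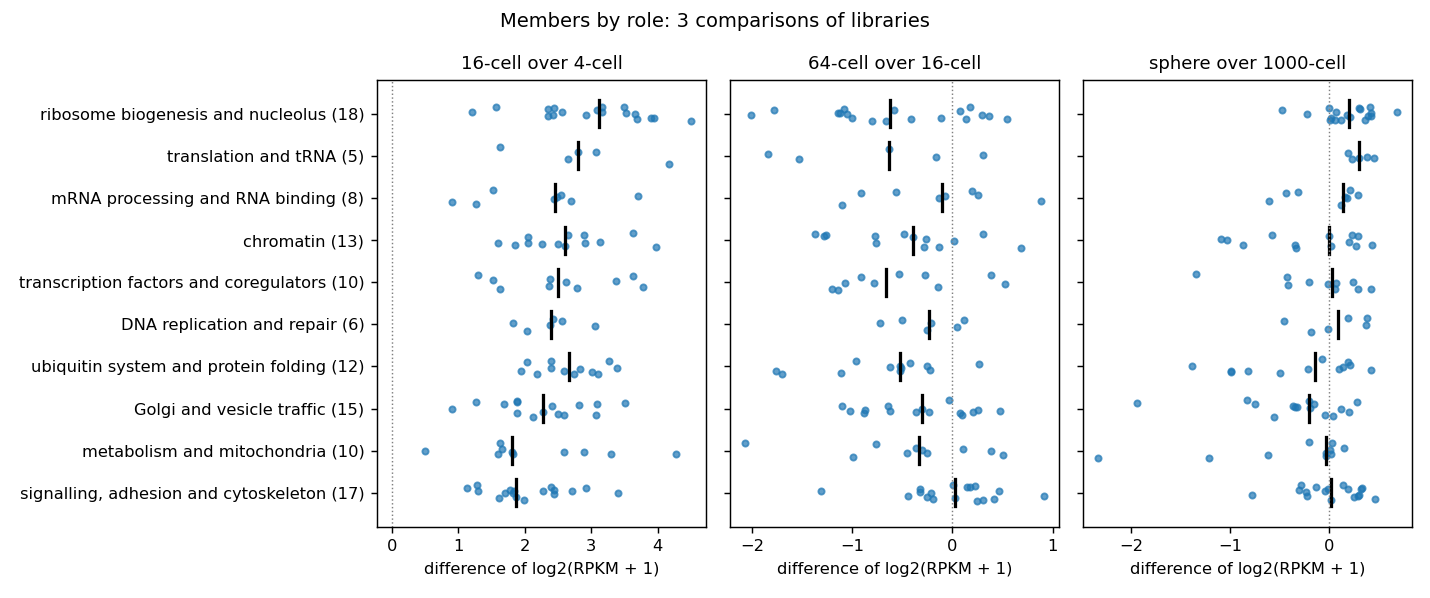
Difference in log2(RPKM + 1) for the 114 genes assigned to 10 role groups (points; number of genes in parentheses; bar, median), in 3 comparisons of libraries. At 16 over 4 cells the median was 3.12 for the 18 ribosome genes and 1.86 for the 17 signalling genes, and 15 of the 18 ribosome genes were higher in sphere than at 1000 cells.

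The highest member at 128 cells was ENSDARG00000005827, 1 of the genes that carry the symbol EIF2S1, a subunit of an initiation factor of translation. It read 2.76 RPKM in the oocyte, 7.32 at 4 cells, 51.1 at 16, 88.2 at 128 and 144 at 1000 cells, and was chosen after its values were seen. Of the 20 highest at 128 cells among genes with a symbol of their own, 4 belong to no role group. ENSDARG00000086626, a gene with no descriptive name, read 0.549 RPKM in the oocyte, 8.58 at 4 cells, 55.4 at 16, 71.4 at 128 and 118 at 1000 cells. mctp2b, of a family of membrane proteins with C2 domains, read 0.328, 5.48, 33.2, 51.6 and 69.3 RPKM at the same stages. TMEM131, a transmembrane protein gene, read 2.50, 7.19, 63.6, 42.3 and 69.5 RPKM, and FAM53B read 7.09, 6.04, 40.8, 44.0 and 44.9 RPKM. In FAM53B and TMEM131 the level at 1000 cells lay close to that at 16 cells, while ENSDARG00000086626 and mctp2b had about doubled.

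Between 1000 cells and sphere, where the first zygotic genes at 1 RPKM or more went from 10 to 19 of 22, the members split. The sphere level was above the 1000-cell level in 86 (51.8%) and below it in 80. It was above in 47.6% of all genes measured and 41.0% of the other abundant genes, so the split was near that of all genes. The counting interval lay above equality in 76 members, below it in 72 and across it in 18. By the 4-fold rule 0 were higher (4.06% of all genes measured) and 2, or 1.2%, were lower (0.415%). Among the other abundant genes 0.047% were higher and 0.992% lower, so the members were near genes of similar level. STARD7, a carrier of phosphatidylcholine to mitochondria, went from 40.8 to 7.31 RPKM, 5.58-fold lower (5.32 to 5.85). BLTP2, of a family of bridge-like lipid transfer proteins, went from 38.6 to 7.02 RPKM, 5.49-fold lower (5.31 to 5.68). At 16 cells they had read 17.2 and 16.6 RPKM.

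In 13 members the sphere level was at or under 0.5 times that at 1000 cells. asap3, which turns off ARF GTPases, went from 37.8 to 9.13 RPKM, 4.14-fold lower (3.98 to 4.30). Among genes with a symbol of their own, USP33 was next at 2.70-fold lower (2.61 to 2.79), ZHX2, a zinc-finger and homeobox factor, 2.67-fold (2.56 to 2.78), and HADHA 2.37-fold (2.296 to 2.45). The gains were smaller, the highest being 1.90-fold (1.76 to 2.05) for the unnamed gene ENSDARG00000074831, from 30.6 to 58.1 RPKM. Among genes with a symbol of their own WDR43 led. It went from 62.2 to 101 RPKM, 1.62-fold (1.58 to 1.66), followed by LMBR1L from 42.8 to 60.7 RPKM, and the class I myosin gene myo1eb from 48.1 to 66.6 RPKM. Among the same genes srcap came next, from 31.6 to 42.7 RPKM, and RRP12, from 41.2 to 55.5 RPKM. By role, 15 of 18 ribosome genes and 5 of 5 translation genes were above their 1000-cell level in sphere, against 4 of 15 Golgi and vesicle genes and 5 of 12 of the ubiquitin and folding group and 47.6% of all genes measured. The difference between these groups was not tested.

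Most members were also present in the sperm library, which played no part in the choice. Their median there was 13.4 RPKM and 160 of 166 (96.4%) reached 1 RPKM, against 18.8 RPKM and 96.7% for the other abundant genes, so presence in sperm did not set them apart. The sperm level was above the oocyte level in 157 of 161 measured members (97.5%), beside 72.1% of all genes measured. By the 4-fold rule 116 of 161 measured members were higher in sperm than in the oocyte and 0 lower, beside 31.5% and 9.08% of all genes measured. The oocyte is the stage next to 1 cell, where members were chosen as scarce. Their median oocyte level was 0.992 RPKM against 29.6 RPKM for the other abundant genes. The choice therefore favours both counts, and they are a description. The sperm library held the testis somatic markers insl3 and gsdf at 430 and 312 RPKM, so its RNA was not from germ cells alone, and their part in the values of the members was not tested. The highest members there were chtopb, an mRNA export factor, at 110.0 RPKM, CUL3 at 92.9, FZR1, an activator of the anaphase-promoting complex, at 90.6, E2F8 at 82.2 and lin37 at 78.5 RPKM. In the oocyte the same 5 read 1.30, 1.63, 0.845, 0.661 and 1.54 RPKM.

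The members were somewhat long genes, with a median length recovered from the values of 2572 bases (138 to 11754) against 2175 bases for the other abundant genes.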

How the data were processed

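RNA-seq libraries of 10 zebrafish stages, 1 each, were used. The deposited values are RPKM for 32574 genes, scaled by the authors to the reads of each library and neither logged nor given a pseudocount. Per the submitters' processing notes TopHat2 2.0.9 and the build Zv9 were used. The counting tool, annotation, strand setting and handling of multiply mapped reads were not given in the sources used here, so overlapping or antisense genes and near-identical copies could share reads. Libraries were TruSeq v2, read as single reads of 50 bp, per the labels' protocols.

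Whole reads and gene lengths were recovered from the ratios of values within genes, for 26492 of 26495 genes with values above 0 in 2 or more libraries (tolerance 0.02 reads). On simulated data of 2997 genes 99.97% were recovered. Intervals are exact 95% Clopper-Pearson intervals. They cover counting error only, since reads without molecular identifiers are not independent molecules. Differences use log2(RPKM + 1), which understates changes of low genes, among genes at 1 RPKM or more in either library, and are called at 2 or more. The trend used limma 3.58.1 (lmFit, eBayes with trend) in R 4.3.3, for genes at 1 RPKM or more in at least 2 of the 5 libraries, with Benjamini-Hochberg adjustment over all genes. Its error mixes departures from a line with differences between libraries.

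Members, gene lists and the tests were chosen with earlier results of these data known, and roles were assigned after the values were seen. Genes named, among members whose symbol no other gene shares, were the 20 highest at 128 cells, the 5 highest and 5 lowest in the oocyte, the 5 highest in sperm, the 5 with the largest difference up and down from 1000 cells to sphere, up to 10 with another largest step, list members, threshold neighbours and hdgfl2. Other names were chosen after their values were seen. 1 gene that this rule names is not reported here. Alternatives were other thresholds, pseudocounts of 0.1 and 5, other filters, 2 other scalings and leaving out libraries. Promoter, transcript and protein sequences were not used here.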

Additional observations from a re-analysis of the deposited data

How the results depend on the processing

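The number of members followed the thresholds: 61 with a 1-cell limit of 0.5 RPKM, 369 with 2 RPKM, 548 with a 128-cell minimum of 10 RPKM and 17 with 40 RPKM. Median ratio scaling left 18 members. For the 166, it put 125 at 1 RPKM or more in the oocyte, raised their median oocyte level to 1.52 RPKM and cut those higher at 16 than at 4 cells to 45. A presence limit of 0.5 or 2 RPKM gave 145 or 33 members in the oocyte. With 64 cells in place of 16, each of the 13 gene lists had fewer genes higher than at 4 cells, for example 12 against 27 in ribosome biogenesis. A pseudocount of 5 gave 61 members higher at 16 than at 4 cells and 0 lower in sphere than at 1000 cells. Leaving out each library in turn, the number called rising by limma ranged from 0 to 164, the higher value without the 16-cell library and 0 without any other. The step from 4 to 16 cells was the largest in 91 to 153 members across pseudocounts and scalings, and with the 16-cell library left out, chosen after seeing the data, the step from 4 to 64 cells was the largest in 126. For single genes in 2 comparisons no called value changed sign, but a call needs a difference of 2 or more, so nothing is read from that. Some values that were not called did change sign under median ratio scaling. At 16 over 4 cells GPX8 went from 0.495 to -0.420 and CLP1 from 0.908 to -0.003. Median ratio scaling moved 96 of 114 values beyond counting error, and leaving mitochondrial genes out of the scaling moved 0. No paired analysis was possible because every stage has 1 library, so the groups share fewer than 2 replicate numbers. Differences smaller than those between clutches or preparations cannot be judged from 1 library per stage.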
